A study of Homo sapiens with 6 samples.

Results

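The SOX genes encode transcription factors that bind DNA through a high-mobility-group (HMG) box, a domain that inserts into the minor groove and bends the helix. They are sorted by the sequence of this domain into lettered groups, whose members often act in the same cells. In the pancreas, SOX9 is known as a factor of progenitor and duct cells, and SOX4 and SOX9 have both been linked to epithelial–mesenchymal transition in cancer. The 10 genes described here are *SOX2* (group SOXB1), *SOX4*, *SOX11* and *SOX12* (SOXC), *SOX5*, *SOX6* and *SOX13* (SOXD), *SOX8* and *SOX9* (SOXE) and *SOX7* (SOXF). They were taken by symbol from the 20347 genes of a table of normalized counts, all 10 were found there, and the 9 other SOX genes in that table were set beside them.

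Gene expression had been measured by RNA-seq in PaTu8988t, an established human pancreatic ductal adenocarcinoma (PDAC) cell line, in 6 libraries. The 3 Control libraries came from replicates of cells that received the CRISPR/Cas9 plasmid with an unspecific guide RNA. The 3 SAMD1 KO libraries came from 3 independent clones, selected with puromycin after CRISPR/Cas9 targeting of *SAMD1*, which encodes a repressor that binds CpG islands. Whether the control cells were clonal was not given in the sources used here, so clonal selection and the loss of SAMD1 cannot be told apart beyond the comparison of the clones with each other.

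Libraries held from 35589477 to 45172216 reads on genes. *SAMD1* itself had 2231, 2382 and 2299 normalized counts in the controls and 874.1, 1082 and 824.8 in the clones, so the targeted transcript was reduced in all 3 clones and still present. RNA left after CRISPR/Cas9 targeting does not measure the protein, and the study checked its knockouts by western blot or immunofluorescence. Of 6 ductal epithelial markers, *KRT7* and *KRT18* were called higher (*KRT18* in 1 of the 6 fits that left out a library), beside 5.77% of all tested genes. *KRT8*, *MUC1* and *EPCAM* were not called, with log2 fold changes of 0.37, 0.24 and −0.06, and *KRT19* had no reads in any library. The summed level of the 6 ran from 62874 to 66081 normalized counts in control cells and from 67857 to 108772 in the clones. Most of this sum came from *KRT8* and *KRT18*. A normalized count is a read count divided by the size factor of its library, and a gene was tested if its mean over the 6 libraries was at least 10. It was called when the log2 fold change by limma lay beyond 0.5 with an unadjusted p below 0.01, the cut-off of the study. Adjustment was by Benjamini-Hochberg across the 12773 tested genes, and SE is the standard error.

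Of the 10 SOX genes, 8 were tested, and *SOX2*, *SOX4*, *SOX6*, *SOX8* and *SOX9* were called higher in SAMD1 KO cells. None was called lower. The median log2 fold change of the 8 was 0.88, against −0.0059 over all tested genes. Among all tested genes, 5.77% were called higher and 2.08% lower. Each of the 5 called members also had a limma adjusted p below 0.05, as had 8.32% of all tested genes in the upward direction, and in each of the 5 the clones lay above all controls without overlap, as in 19.2% of all tested genes. None of the 8 passed the count minimum through 1 group alone, since every group mean was above 40 normalized counts. *SOX9* had been picked by the study from these libraries, and the members were listed with earlier results of these data known. The count of called members and their median are therefore not independent evidence. The 2 tested SOX genes outside the list, *SOX15* and *SOX18*, were not called. In bulk RNA, a change in the share of cells that express a gene and a change in RNA per cell cannot be told apart.

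**Figure D1:**
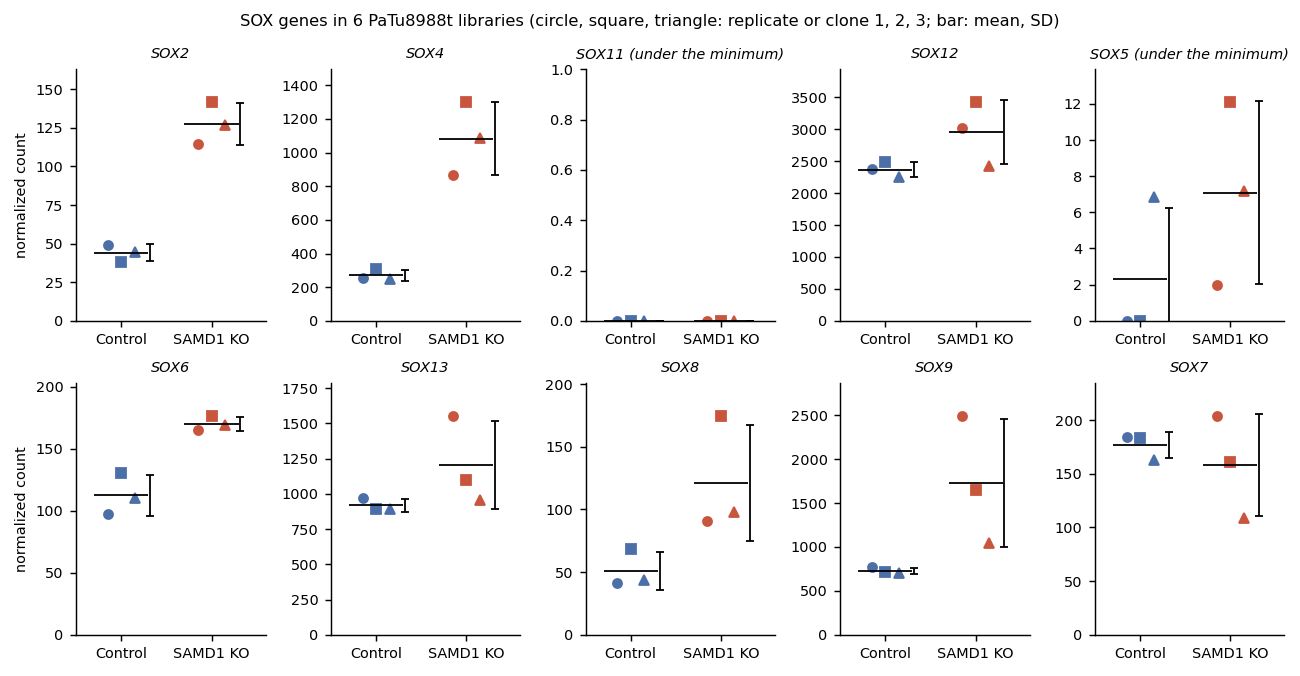
Normalized counts of the 10 SOX genes in each library, with a separate axis from 0 for each gene. Points are Control replicates (blue) and SAMD1 KO clones (red), horizontal lines are means and bars show the SD (n = 3). In *SOX2*, *SOX4*, *SOX6*, *SOX8* and *SOX9* every clone lies above every control, while the groups overlap in *SOX7*, *SOX12* and *SOX13*.

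*SOX2*, which encodes a factor of pluripotent cells and neural progenitors, lies on chromosome 3 (181711925 to 181714436, GRCh38, plus strand) as a gene of 1 exon. It had 49.2, 38.2 and 44.7 normalized counts in control replicates 1 to 3 and 114.7, 141.7 and 126.8 in clones 1 to 3. The clones were close to each other and all of them stood above the highest control. The 3 clones averaged 127.7 ± 13.5 normalized counts (SD, n = 3), with a log2 fold change of 1.52 (SE 0.17, adjusted p = 0.00261 by limma). *SOX2* lies within the span of the long noncoding gene *SOX2-OT* on the same strand and shares no exon bases with it.

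Within group SOXC, whose proteins act in many progenitor cells, the 3 members behaved differently. *SOX4* (chromosome 6, 21593751 to 21598619, plus strand, 1 exon) had 253.9, 306.2 and 249.7 normalized counts in the controls and 864.2, 1300.2 and 1085 in the clones. This was the largest change of the 8 tested members, with every clone well above every control. The log2 fold change was 1.99 (SE 0.16, adjusted p = 0.000764 by limma), a 3.96-fold rise with a 95% interval from 3.05 to 5.15. Of the *SOX4* exon bases, 168 overlap a long noncoding gene on the opposite strand. Among all tested genes *SOX4* ranked 61 by p. When single libraries were left out, its log2 fold change ran from 1.84 to 2.14 and that of *SOX2* stayed at 1.42 or above, and both genes were called in all 6 of these fits.

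*SOX12*, the SOXC gene with the highest counts, lies on chromosome 20 (325552 to 330224, plus strand). Control replicates had 2370.1, 2480.3 and 2255 normalized counts and the clones 3023, 3424 and 2429. Clone 3 fell between the controls, so the groups overlapped. The log2 fold change was 0.31 (95% interval 0.03 to 0.59, limma adjusted p = 0.14), and *SOX12* was not called. Without clone 3, the value was 0.44 with a limma adjusted p of 0.0135, still under the fold cut-off. *SOX11* had 0 reads in all 6 libraries. Taken as the upper limit for a count of 0 (95%, 1-sided), 3 reads correspond to at most 0.0843 CPM (reads scaled to a total of 1e6) in the shallowest library. This limit and the count intervals below cover counting error only.

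The SOXE genes *SOX8* and *SOX9*, known from neural crest, cartilage and duct cells, both rose. *SOX9* (chromosome 17, 72121020 to 72126416, plus strand) had 766.4, 712.3 and 707.9 normalized counts in the controls and 2491, 1646 and 1045 in clones 1 to 3. All clones were above the controls, yet they differed from each other far more than the controls did, with a coefficient of variation of 42.0% against 4.47%. The 95% Poisson intervals of the 3 clones, 2395 to 2590, 1573 to 1721 and 986 to 1107, did not overlap. The mean rose from 728.9 ± 32.6 to 1727 ± 726 (SD, n = 3 each), with a log2 fold change of 1.16 (SE 0.27, adjusted p = 0.0357 by limma).

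*SOX8* (chromosome 16, 981770 to 986979, plus strand) had 41.2, 68.5 and 43.5 normalized counts in the controls and 91.0, 174.5 and 98.0 in the clones. The highest control stayed under the lowest clone, and clone 2 stood apart from the other 2 clones. Its log2 fold change was 1.20 (SE 0.31, adjusted p = 0.0447 by limma). The next gene to the left, *LMF1*, lies 0.452 kb away and was called higher too, with a log2 fold change of 0.69 (limma adjusted p = 0.0378). *SOX10*, the SOXE gene that is not among the members, had 1 read in each group.

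In group SOXD, whose proteins lack an activation domain of their own and of which SOX5 and SOX6 assist SOX9 in cartilage, *SOX6* was called. *SOX6* (chromosome 11, 15966449 to 16739591, minus strand) had 97.2, 130.1 and 110.0 normalized counts in the controls and 165.1, 176.2 and 169.1 in the clones. The clones lay close together and above all controls. At 0.60 (SE 0.15, adjusted p = 0.0378 by limma), its log2 fold change was the smallest of the called members.

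*SOX13* (chromosome 1, 204073115 to 204127743, plus strand) had 970.0, 894.3 and 891.2 normalized counts in the controls and 1551, 1100 and 956.1 in the clones. Clone 1 was well above the controls, while clone 3 fell between them. *SOX13* was not called, with a log2 fold change of 0.36 (95% interval −0.03 to 0.75, limma adjusted p = 0.2). *SOX5* was under the count minimum, with 0, 0 and 6 reads in the controls and 2, 14 and 8 in the clones.

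*SOX7*, a SOXF gene known from endothelial cells, was the only tested member with a negative value. It lies on chromosome 8 (10723768 to 10730511, minus strand) and had 184.2, 183.0 and 162.7 normalized counts in the controls and 203.7, 160.7 and 108.8 in clones 1 to 3. The clones fell on both sides of the controls. The log2 fold change was −0.21 (95% interval −0.73 to 0.32, limma adjusted p = 0.586), and without clone 3 it was 0.04. In the annotation a readthrough model listed under the symbol *PINX1* shares 1268 exon bases with *SOX7* on the same strand, so reads there may have been assigned to either. *PINX1* had a log2 fold change of −0.31 (adjusted p = 0.129 by limma). Endothelial markers were at low levels, with *ERG* and *EMCN* at 0 reads and the sum over 8 markers between 89.2 and 101.9 normalized counts in the controls and between 37.6 and 89.9 in the clones.

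**Figure D2:**
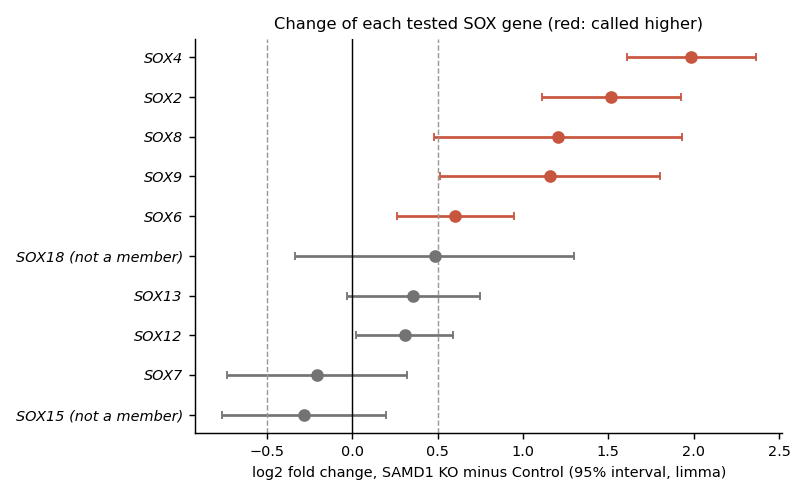
Change (log2, SAMD1 KO minus Control, x axis) of the 8 tested members and the other 2 tested SOX genes, with 95% intervals from limma. Dashed lines mark 0.5 in each direction and red marks the called genes. The intervals of *SOX4*, *SOX2* and *SOX9* lie entirely beyond 0.5, with that of *SOX9* starting at 0.51, that of *SOX8* starts at 0.48, and those of *SOX13*, *SOX18*, *SOX7* and *SOX15* include 0.

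The calls of *SOX6*, *SOX8* and *SOX9* were lost in some of the fits that left out 1 library. Without control replicate 1, without control replicate 3 or without SAMD1 KO clone 2, only *SOX2* and *SOX4* of the members were called. Without control replicate 2, *SOX6* and *SOX8* were called and *SOX9* was not, with a limma adjusted p of 0.129. The log2 fold change of *SOX9* ran from 0.85 to 1.47 over the 6 fits, that of *SOX8* from 0.91 to 1.43 and that of *SOX6* from 0.50 to 0.71. An exact permutation test of 3 against 3 libraries gave p = 0.1 for each of the 5 called members, which is the smallest p this design allows.

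SAMD1 is known to prefer unmethylated DNA with the motif GCGC, so the promoters of SOX genes were searched for these letters. Sequences of the 250 bases before the annotated start were taken from RefSeq (GRCh38.p14), which held an entry for 6 of the 10 members (*SOX2*, *SOX4*, *SOX5*, *SOX6*, *SOX12* and *SOX13*). GCGC reads the same on both strands, and overlapping matches were counted. Shown here are the 2 most strongly raised members, *SOX4* and *SOX2*, and the SOXC and SOXD genes that were not called, *SOX12* and *SOX13*, with each GCGC in capitals:
SOX4: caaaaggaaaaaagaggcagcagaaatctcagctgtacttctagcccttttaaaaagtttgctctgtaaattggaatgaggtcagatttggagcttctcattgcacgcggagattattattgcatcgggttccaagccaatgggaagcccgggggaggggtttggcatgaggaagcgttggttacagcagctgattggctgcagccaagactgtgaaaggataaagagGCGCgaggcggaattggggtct
SOX2: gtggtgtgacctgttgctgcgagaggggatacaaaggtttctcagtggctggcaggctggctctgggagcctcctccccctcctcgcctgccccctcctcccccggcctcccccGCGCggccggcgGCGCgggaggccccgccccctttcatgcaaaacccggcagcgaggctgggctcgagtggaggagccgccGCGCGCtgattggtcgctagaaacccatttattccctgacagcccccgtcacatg
SOX12: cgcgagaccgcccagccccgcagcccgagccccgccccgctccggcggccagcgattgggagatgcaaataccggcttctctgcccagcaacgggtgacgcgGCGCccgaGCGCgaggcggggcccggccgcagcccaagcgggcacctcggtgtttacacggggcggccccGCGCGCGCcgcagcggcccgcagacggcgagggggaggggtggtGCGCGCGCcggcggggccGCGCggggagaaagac
SOX13: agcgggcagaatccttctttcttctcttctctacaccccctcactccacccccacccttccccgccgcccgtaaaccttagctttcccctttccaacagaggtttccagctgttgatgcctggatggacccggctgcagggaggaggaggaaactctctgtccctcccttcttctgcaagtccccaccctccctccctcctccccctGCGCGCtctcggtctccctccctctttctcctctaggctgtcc
They lie at chr6:21593501-21593750, chr3:181711675-181711924, chr20:325302-325551 and chr1:204072865-204073114, all on the plus strand.

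The *SOX4* promoter held 1 GCGC and 8 CpG dinucleotides, and that of *SOX2* held 4 GCGC and 20 CpG. In *SOX12*, which was not called, 9 GCGC and 42 CpG were found, and in *SOX13* 2 and 8. The first listed start of *SOX6* had 2 GCGC and that of *SOX5* had 6. At least 1 GCGC was present in 80.9% of the promoters of 10260 tested genes, where the median was 3. The called members *SOX8* and *SOX9* had no entry, and bases after the start were not searched. Whether GCGC goes with the changes was not tested. Binding of SAMD1 was not analysed here.

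Levels of different genes were compared per length, as normalized counts per kb of annotated exon. In control cells the order was *SOX12* (506.9 per kb), *SOX9* (185.4), *SOX13* (123.8), *SOX4* (55.4), *SOX7* (54.9), *SOX2* (17.5), *SOX8* (11.4) and *SOX6* (5.60). The median tested gene had 220.9 per kb, so of the SOX genes *SOX12* alone was above it. *SOX4* and *SOX7* were not separated in the controls, with 51.3 to 62.9 and 50.6 to 57.3 per kb. *SOX8* and *SOX2* overlapped too, with up to 15.3 per kb for *SOX8* and down to 15.2 for *SOX2*.

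In SAMD1 KO cells, *SOX12* (633.1 per kb) and *SOX9* (439.4) were still first, while *SOX4* with 222.4 per kb moved ahead of *SOX13* with 162.1. In clone 1 the order of the latter 2 was the opposite, with 177.5 per kb for *SOX4* and 209.1 for *SOX13*. In the same clone *SOX9* came to 633.6 per kb, close to the 646.9 of *SOX12*, and above the 519.7 of *SOX12* in clone 3. *SOX9* in clone 3 (265.9 per kb) was in turn no higher than *SOX4* in clone 2 (267.0). *SOX2* (50.9) and *SOX7* (49.1) were not separated in the clones, nor were *SOX7* in clone 3 (33.9) and *SOX8* in clone 2 (39.0). Between *SOX13* and *SOX2*, and between *SOX8* and *SOX6* (8.47), the clones did not overlap. Divided by the length of the canonical transcript instead of all exons, *SOX13* stood above *SOX9* in the controls (225.3 against 185.4 per kb) and above *SOX4* in the clones (295.0 against 222.4).

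**Figure D3:**
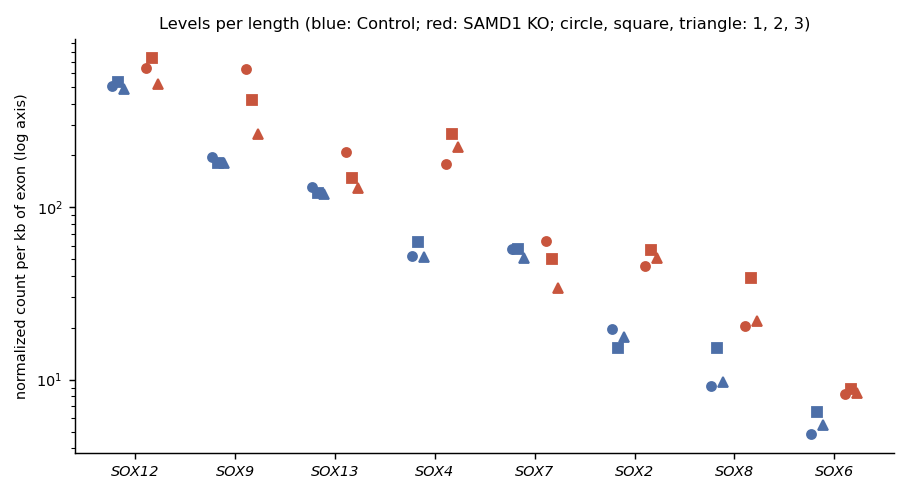
Normalized counts per kb of exon of the 8 tested SOX genes on a log axis, ordered by the mean of the control replicates. Blue points are the 3 Control replicates and red points the 3 SAMD1 KO clones. *SOX4* and *SOX7* lie together in the controls at about 55 per kb, and in the clones *SOX4* lies above *SOX7*.

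Summed over the 10 members, the level was 961.2 ± 37.7 per kb in control cells and 1593 ± 298 per kb in SAMD1 KO cells (SD, n = 3 each). Clones 1 to 3 had 1805, 1722 and 1253 per kb, all above the highest control with 989.3. *SOX12* made up 52.7% ± 0.85 of this sum in the controls and 40.0% ± 3.6 in the clones. The share of *SOX4* was 5.76% ± 0.53 and 14.4% ± 4.1, and that of *SOX9* was 19.3% ± 0.87 and 26.9% ± 7.3 (SD, n = 3 each). The share of *SOX7* was 5.71% ± 0.18 and 3.04% ± 0.42.

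The clones did not raise the same SOX genes most. *SOX9*, *SOX13* and *SOX7* were highest in clone 1 and lowest in clone 3, and *SOX2*, *SOX4*, *SOX6*, *SOX8* and *SOX12* were highest in clone 2. No tested member was highest in clone 3. For *SOX2* and *SOX6* the order of the clones was within counting error. The 95% Poisson intervals of clones 1 to 3 overlapped, with 94.8 to 137.6, 120.8 to 165.1 and 106.8 to 149.6 for *SOX2*. For *SOX6* they were 141 to 192, 153 to 202 and 146 to 195. Those of *SOX7* overlapped between clones 1 and 2. Against the control mean, *SOX9* was higher by 1.77, 1.17 and 0.52 on the log2 scale in clones 1 to 3, and *SOX4* by 1.68, 2.27 and 2.01. With 1 library per clone, differences between clones could not be tested beyond counting error.

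Neighbouring genes were compared because clones can differ in whole regions. Around *SOX2*, *SOX4*, *SOX6*, *SOX7* and *SOX9*, the median log2 difference from control of the 20 nearest tested genes lay between −0.09 and 0.14 in every clone. Around *SOX12* the 12 genes in reach had medians of 0.31, 0.31 and −0.03 in clones 1 to 3, beside 0.35, 0.53 and 0.04 for *SOX12* itself. The *SOX12* values were therefore close to those of its neighbours in clones 1 and 3. Around *SOX8* the median was 0.37 in clone 2, beside 1.79 for *SOX8*, and around *SOX13* it was −0.27 in clone 2, beside 0.26 for *SOX13*. Of the 20 genes around *SOX8*, 4 were called higher, beside 5.77% of all tested genes. Around *SOX6* and around *SOX9*, 3 of 20 were called higher. Around *SOX2*, *SOX4*, *SOX7*, *SOX12* and *SOX13*, between 0 and 2 were called higher. After the median of the flanking genes was subtracted, the log2 fold changes were 2.06 for *SOX4*, 1.53 for *SOX2*, 1.09 for *SOX9*, 1.07 for *SOX8*, 0.56 for *SOX6*, 0.46 for *SOX13*, 0.12 for *SOX12* and −0.19 for *SOX7*.

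**Figure D4:**
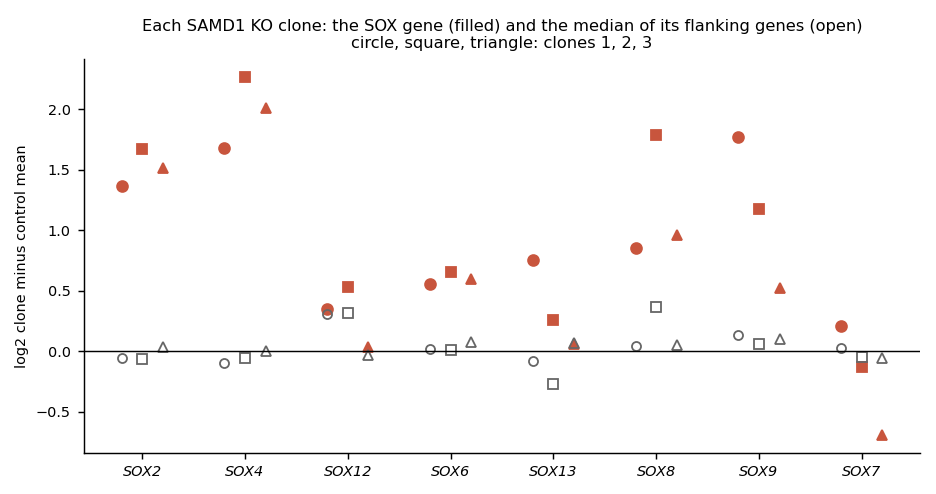
Log2 difference of each SAMD1 KO clone from the mean of the control replicates, for the SOX gene (filled symbols) and for the median of its flanking tested genes (open symbols). Symbol shapes mark clones 1, 2 and 3. For *SOX2*, *SOX4* and *SOX9* the open symbols lie near 0 in all clones, while for *SOX12* they lie at 0.31, 0.31 and −0.03.

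Of the nearest tested genes on either side of the 8 tested members, *LMF1* beside *SOX8* and *CALCB* beside *SOX6* were called. *CALCB*, 884.1 kb away, had a log2 fold change of 3.25 (adjusted p = 0.0411 by limma). The nearest tested genes of *SOX4* were *CDKAL1*, 361.3 kb away with a log2 fold change of −0.03 (limma adjusted p = 0.818), and *DCDC2*, with 0.97 (limma adjusted p = 0.0913). Beside *SOX2*, *DNAJC19* and *ATP11B* had log2 fold changes of −0.03 and 0.00, with limma adjusted p-values of 0.759 and 0.96. Beside *SOX9*, *SLC39A11* had 0.04 (limma adjusted p = 0.812) and *MAP2K6* had 0.44 (limma adjusted p = 0.261).

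The genes with the most similar pattern over the 6 libraries, described by Pearson's r of log2 values among genes averaging 50 or more normalized counts, were *PHKA2*, *ZSWIM5* and *HS6ST3* for *SOX4* (r of at least 0.998). For *SOX9* they were *HOXB7*, *PTPRA* and *ZNF287* (r from 0.995 to 0.998), which all had their highest value in clone 1 and their lowest clone value in clone 3. For *SOX2* they were *KRT7*, *MMD* and *ACSL1* (r from 0.997 to 0.999). The 6 points share the same 2 groups, so the difference between groups alone makes many such values high.

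Of the other 9 SOX genes in the table, *SOX15* and *SOX18* were tested and neither was called. *SOX18*, a SOXF gene of vessels, had 45.8 to 56.7 normalized counts in the controls and 51.4, 122.7 and 52.2 in the clones, with clone 2 alone above the range of the controls. Its log2 fold change was 0.48 (95% interval −0.33 to 1.30, limma adjusted p = 0.393). *SOX15* had −0.28 (95% interval −0.76 to 0.20, limma adjusted p = 0.4), and 35 of its exon bases overlap *MPDU1* on the opposite strand. *SOX21* had 4, 4 and 0 reads in the controls and 1, 18 and 17 in the clones, and *SOX30* had at most 5 reads in any library. *SOX1*, *SOX3*, *SOX14* and *SOX17* had no reads in any library.

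Other transcription factors with an HMG box were set beside the SOX genes. Of 7 such genes, all tested, 2 were called higher and 0 lower, beside 5.77% and 2.08% of all tested genes. The median log2 fold change of the 7 was 0.30. *LEF1*, a nuclear partner of beta-catenin, was at 597.1 ± 40.6 normalized counts in the controls and rose to 1286 ± 110 in the clones (SD, n = 3), with a log2 fold change of 1.10 (SE 0.09, adjusted p = 0.000777 by limma). *TCF7L1*, known as a repressor of the same family, rose from 271.4 ± 18.0 to 486.7 ± 84.3 (adjusted p = 0.00999 by limma). Both were called in each fit that left out 1 library.

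Several SOX proteins are known to modulate the WNT pathway. Among 11 output genes of this pathway, 8 were tested (median log2 fold change 0.58) and 3 were called higher, beside 5.77% of all tested genes. *AXIN2*, *NKD1* and *NOTUM*, which encode feedback inhibitors of the pathway, had log2 fold changes of 1.24, 1.03 and 1.11, with limma adjusted p-values of 0.0168, 0.00811 and 0.00676. The clones stood above all controls in each of these genes. *MYC* and *CCND1* had 0.06 and 0.24 and were not called.

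Among 9 factors known to act beside SOX proteins, 4 were tested (median log2 fold change 0.54) and 1 was called higher, beside 5.77% of all tested genes. *POU3F2*, a neural POU factor, had 114.4, 84.1 and 101.9 normalized counts in the controls and 168.1, 276.5 and 259.0 in the clones (log2 fold change 1.20, SE 0.22, adjusted p = 0.0146 by limma). *PAX6*, an eye, brain and islet factor, had 479.6, 1178 and 924.6 in the clones against 412.6 ± 28.7 (SD, n = 3) in the controls. It was not called by limma (log2 fold change 0.97, adjusted p = 0.0768), but it passed the cut-off in 4 of 15 alternatives. These were edgeR (1.07, adjusted p = 0.0567), DESeq2 (1.06, adjusted p = 0.00175), limma with a replicate block (0.97, adjusted p = 0.0629) and limma without clone 1 (1.34, adjusted p = 0.00166).

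Of 19 genes of pancreatic duct and progenitor cells, 11 were tested (median log2 fold change 0.54). Of these, 4 were called higher and 0 lower, beside 5.77% and 2.08% of all tested genes. *PDX1*, a pancreatic progenitor factor, was at 141.9 ± 5.9 normalized counts in the controls and rose to 224.5 ± 24.6 in the clones (SD, n = 3, adjusted p = 0.0175 by limma). *GLIS3* rose from 17.9 ± 5.6 to 58.6 ± 6.9, and *KRT7*, a duct keratin, from 30.2 ± 4.0 to 84.2 ± 6.3. *CD24*, a surface protein, had 120.6, 257.5 and 86.3 in the clones against 30.5 ± 2.9 in the controls. *PTF1A*, *KRT19* and *SPP1*, which mark progenitors or ducts, had no reads in any library.

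**Figure D5:**
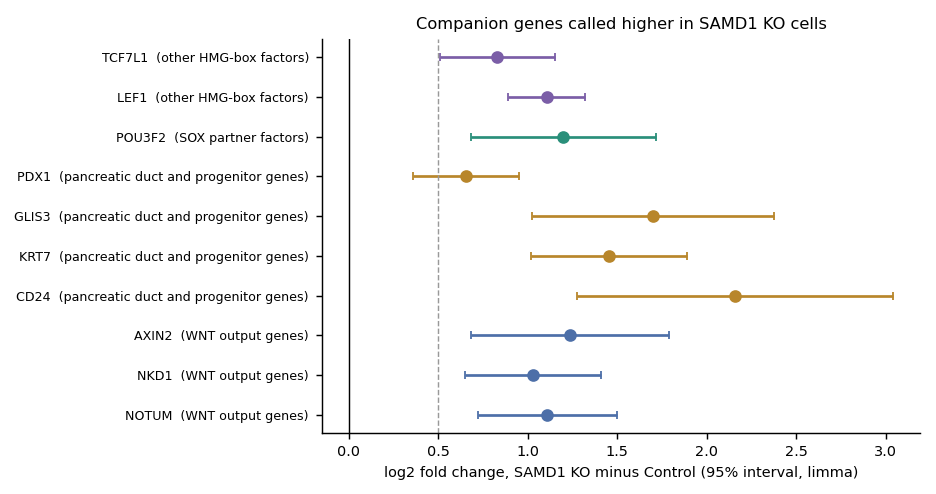
Change (log2, SAMD1 KO minus Control, x axis), with 95% intervals from limma, for the 10 companion genes called higher, coloured by list. The dashed line marks 0.5. *CD24* has the widest interval, from 1.27 to 3.04, and that of *LEF1* runs from 0.89 to 1.32.

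Genes linked to SOX proteins in other tissues were counted beside the 5.77% of all tested genes called higher and the 2.08% called lower, shares at which lists of this size would hold few calls or none. Of 16 cartilage genes linked to SOX9, SOX5 and SOX6 in chondrocytes, 8 were tested and 0 were called in either direction (median log2 fold change −0.06). *COL27A1*, a fibrillar collagen, had 2554 ± 113 normalized counts in the controls and 1976 ± 226 in the clones (SD, n = 3), a log2 change of −0.38 that was under the fold cut-off (adjusted p = 0.0369 by limma). *COL9A2* had −0.60 (adjusted p = 0.24 by limma). *COL2A1* and *ACAN*, the defining genes of cartilage, had means under 4 normalized counts in both groups. Of 8 genes linked to SOXC proteins, 7 were tested and 0 were called (median log2 fold change 0.18), although *TEAD2* had 1244.5, 1249.4 and 1190.1 normalized counts in the controls and 1526, 1593 and 1660 in the clones (log2 fold change 0.37, limma adjusted p = 0.00999). *DICER1* had a log2 fold change of −0.17 (limma adjusted p = 0.086).

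Of 14 stem cell genes linked to SOX2, only *SALL4* and *NES* reached the count minimum, with log2 fold changes of 0.12 and 0.10 and limma adjusted p-values of 0.716 and 0.916. *POU5F1*, the partner of SOX2 in pluripotent cells, had a mean of 2.50 normalized counts in the controls and no reads in the clones. Of 8 genes for enzymes that modify or degrade SOX proteins, all tested, 0 were called (median log2 fold change −0.01), and those with the smallest p, *GSK3B* and *PIAS1*, both had a log2 fold change of −0.14 (limma adjusted p = 0.095 and 0.203).

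Markers of other cell types were examined as well. Of 8 fibroblast markers, *DCN*, *LUM* and *FAP* had no reads, and 3 were tested. *COL3A1* had a log2 fold change of 1.13 (limma adjusted p = 0.0881) and passed the cut-off in 3 of 15 alternatives (edgeR, DESeq2 and without clone 3). *COL1A1* went the other way, with 50.3, 48.9 and 52.7 normalized counts in the controls and 21.8, 41.5 and 15.3 in the clones (log2 fold change −1.04, adjusted p = 0.098 by limma). *PDGFRA* was called higher. It had 4.58, 3.91 and 3.44 normalized counts in the controls and 23.7, 14.7 and 15.3 in the clones, and passed the minimum through the clones alone. The 8 fibroblast markers summed to 167.2 to 170.2 normalized counts in the controls and 163.7 to 457.9 in the clones. Of 7 neural crest, glial and melanocyte markers, *S100B* had no reads, and 4 were tested, none of which was called (median log2 fold change −0.04). *FOXD3* and *MITF* had log2 fold changes of 0.82 and 0.17 (limma adjusted p = 0.278 and 0.342), and *PMEL* and *MLANA* had −0.36 and −0.24 (limma adjusted p = 0.367 and 0.68). The 7 summed to 386.6 to 410.9 normalized counts in the controls and 419.0 to 470.4 in the clones. Most of this was *MITF*, with 319.1 to 354.2 in the controls and 352.5 to 420.9 in the clones. Among leukocyte markers, *PTPRC* had a mean under 3 normalized counts in both groups and *CD68*, the only one tested, had a log2 fold change of −0.31 (limma adjusted p = 0.155). The 5 leukocyte markers summed to 358.5 to 382.6 normalized counts in the controls and 252.3 to 333.7 in the clones. Almost all of this was *CD68*, with 353.5 to 367.9 in the controls and 241.9 to 325.6 in the clones. *CDH5*, an endothelial cadherin, had 37.7, 29.4 and 32.1 normalized counts in the controls and 2.97, 17.3 and 11.7 in the clones (log2 fold change −1.80, adjusted p = 0.0748 by limma). It was not called, but passed the cut-off in 4 of 14 alternatives (a pseudocount of 10, DESeq2, and without clone 1 or clone 2). *PECAM1*, also endothelial, had a log2 fold change of −0.43 (limma adjusted p = 0.584). The part of these marker levels in the SOX results was not tested.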

How the data were processed

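RNA was sequenced from 3 replicates of PaTu8988t control cells and 3 SAMD1 KO clones. Per the study's methods, the authors used RNA-STAR with the GenCode 43 transcriptome and DESeq2 normalization, and the submitters' processing notes name featureCounts and hg38. The strand setting was not given in the sources used here. The deposited signal is a normalized count, and dividing by 1 step per library gave whole reads for 100% of the values (tolerance 0.001 of a read). No sample column was left unused (0 columns). The deposited table of the authors' own comparison (fold changes and p-values) was not used.

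log2(normalized count + 1) was fitted with limma 3.58.1 (trend) in R 4.3.3 for 12773 genes with a mean of at least 10. Alternatives were pseudocounts of 0.1 and 10, a minimum mean of 50 or none, scaling to the upper quartile (75th percentile), a replicate block, each library left out, edgeR 4.0.16 and DESeq2 1.42.0 on recovered reads, and an adjusted p below 0.05 in the cut-off. Positions and exon lengths are from GENCODE 44. On simulated data with 200 of 12773 genes changed 2-fold, all 200 were recovered by limma, edgeR and DESeq2, beside 19, 20 and 6 false calls. The simulation gave every gene in both groups the same relative spread beyond counting and changed only genes averaging more than 50 reads. That spread was lower than in real clones for genes such as *SOX9*, with a coefficient of variation of 42.0%. The power and false calls of the real comparison therefore cannot be read from it. Members, lists and tests were chosen with earlier results of these data known. Named genes are the members, *SAMD1*, the other SOX genes, called genes of each list (or the 2 with the smallest p), nearest neighbours and the 3 most similar genes. *SOX2-OT*, *KRT8*, *MUC1*, *EPCAM*, *MYC*, *CCND1*, *COL2A1*, *ACAN*, *POU5F1*, *PTPRC*, *COL1A1*, *PMEL*, *MLANA* and genes named as having no reads were added after their values were seen. P-values measure the spread between these libraries, with a variance for each gene shared by control replicates and clones. The spread of these differed for genes such as *SOX9*, with coefficients of variation of 4.47% in the controls and 42.0% in the clones. Python 3.11.15, pandas 2.3.3 and SciPy 1.17.1 were used for other steps.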

Additional observations from a re-analysis of the deposited data

How the results depend on the processing

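Of the 10 members, 5 were called higher and 0 lower under each alternative of pseudocount, filter, scaling, tool and adjusted p, as in the comparison reported. With each library left out in turn, between 2 and 5 members were called higher (0 lower). The limma adjusted p was below 0.05 in 6 of these 6 fits for *SOX2* and *SOX4*, in 2 for *SOX9* and in 1 for *SOX6* and for *SOX8*. With the replicate number as a block, 5 members were called and 725 genes were higher and 259 lower, against 737 and 266 without it. In that fit the limma adjusted p of *SOX6* was 0.0622. Whether replicate numbers pair the samples could not be settled. Deviations from the group mean correlated at 0.04, 0.13 and 0.03 between libraries of the same number. Control replicates 1 and 2 each correlated best with the clone of their own number. Control replicate 3 correlated about equally with clone 1 (0.04) and clone 3 (0.03). Of the 56 tested companion genes, 10 were called higher and 0 lower, beside 5.77% and 2.08% of all tested genes. With no filter on low counts, 1 companion gene was called lower, *POU5F1*, which is otherwise under the minimum. With each library left out, between 0 and 1 were called lower, the 1 being *TCF7L2* without clone 3. Both were named after their values were seen. With each library left out, the log2 fold change turned in sign for *SOX7* (−0.41 to 0.037), positive without clone 3, for *SALL4* (−0.0035 to 0.22), negative without clone 2, and for *NES* (−0.42 to 0.62), negative without clone 1. None of these was called in any fit. Over 38 genes and 15 alternatives, 533 of 563 values kept their direction and call, and the cause of the other changes was not tested. A gene with no reads in 1 library may still be present there, with 3 reads taken as the upper limit (95%, 1-sided), which is at most 0.0843 CPM.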
